A study of Mus musculus with 2 samples.

Results

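Imprinted genes are transcribed mainly or solely from the copy inherited from 1 parent. The genes described here were 39 mouse genes of this kind, and every probe set with a single annotated symbol equal to 1 of them was taken, which gave 90 probe sets for 34 genes of the 18193 genes with such a probe set on the array. The remaining 5, H19, Rtl1, Dio3, Slc22a3 and Zrsr1, had no single-symbol probe set. RNA came from whole limb buds of Bhlha9 knockout embryos and of wild-type embryos, both of the C57BL/6 strain and at E10.5, and each genotype was measured on 1 Affymetrix Mouse Genome 430 2.0 array. Bhlha9 is a transcription factor gene of the limb bud, of the basic helix-loop-helix class. The sources used here do not give how the knockout allele was built, how many embryos were pooled for an RNA, or the proportion of fore and hind limb buds. Both arrays came from 1 strain and read total RNA, so the parental allele behind a signal was not measured, and the allele named for each gene below is background knowledge.

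Imprinting rests on DNA methylation laid down in the egg or the sperm at control regions, each of which steers a cluster of neighbouring genes. Many paternally expressed genes promote growth of the embryo and placenta, and several maternally expressed ones restrain it. In limb and trunk mesoderm a number of these genes, such as Igf2, Mest and Plagl1, are known for abundant transcripts at midgestation, and their activity declines after birth.

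The deposited values were MAS 5.0 signals, a summary of each probe set on a linear scale in arbitrary units, with a median of 77.3 on the knockout array and 79.6 on the wild-type array. A signal counted as above the floor when it exceeded the 40th percentile of its array, 41.8 on the knockout and 41.2 on the wild-type array. With 1 array a genotype there was no replicate, so no test, standard error or p-value was possible, and "higher" and "lower" compare these arrays. The measurement error within the arrays was read from the disagreement of probe sets of the same gene, and came to an SD of 0.28 for 1 log2 ratio. It holds no variation from embryo to embryo or from dissection to dissection. The probe set of Bhlha9 read 1.70 on the knockout array and 7.87 on the wild-type array, which is below the floor in both cases, and therefore gave no check of the genotype labels.

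Tissue markers differed strongly between the RNAs and stand beside everything that follows. Of 19 measured genes of liver, yolk sac and gut, 15 exceeded 2-fold upwards on the knockout array and 0 downwards, with a summed signal of 35553 on the knockout array and 334 on the wild-type array, where only Apoa2 exceeded the floor. Neural tube genes summed to 8783 on the knockout array and 2685 on the wild-type array, and 8 of 17 passed 2-fold upwards and 0 downwards. Limb mesenchyme genes went the other way, with 0 of 23 higher and 11 lower by 2-fold and sums of 27904 on the knockout and 50454 on the wild-type array, although 2 of them at most were below the floor on either array. Muscle genes summed to 5962 on the knockout array and 3177 on the wild-type array, with 9 of 15 at least 2-fold higher and 0 lower. Nerve and neural crest genes summed to 3291 on the knockout and 1480 on the wild-type array, with 6 of 11 higher and 0 lower. Ectoderm genes summed to 12466 on the knockout and 7988 on the wild-type array, with 8 of 16 higher and 1 lower. Of all genes above the floor, 4.15% were at least 2-fold higher and 2.65% lower. In such bulk RNA, fewer cells of a type and less RNA per cell cannot be told apart. The part of this difference in tissue makeup in the ratios of the imprinted genes was not tested.

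**Figure D1:**
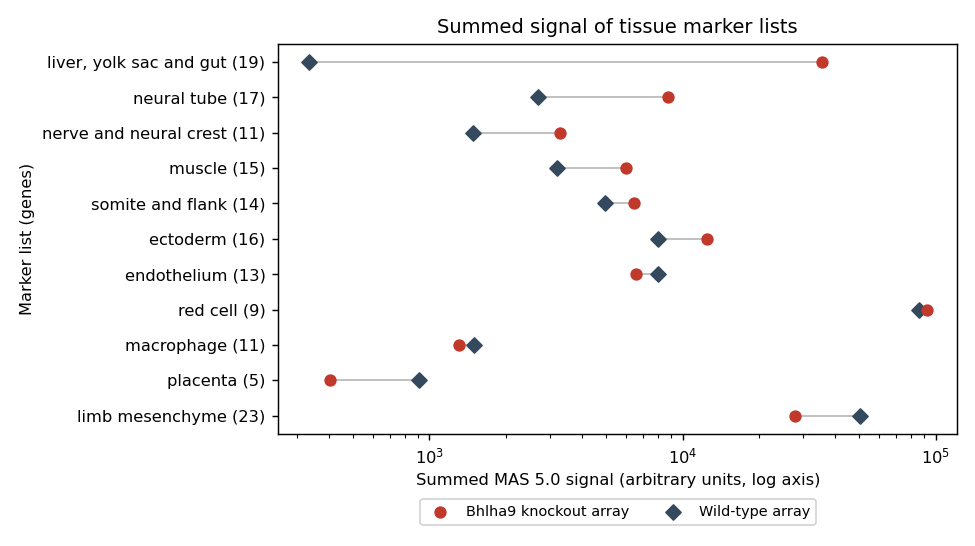
Summed MAS 5.0 signal (arbitrary units, log axis) of tissue marker lists, with the number of measured genes in brackets, on the knockout array (circles) and the wild-type array (diamonds). The liver, yolk sac and gut list stands at 35553 on the knockout array against 334 on the wild-type array, while the limb mesenchyme list is lower on the knockout array.

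Against that background most imprinted genes read almost alike on both arrays. Of the 34 measured genes, 32 were above the floor, all of them on both arrays, and Slc22a18 and Snrpn were under it on both. By each gene's brightest probe set, 1 of the 32 passed 2-fold in the higher direction, the zinc finger gene Zim1, where 4.15% of all 13088 genes above the floor were. Likewise 1 was at least 2-fold lower, the placental growth regulator Phlda2, where 2.65% of all genes were. The members' shares of 3.12% in each direction were near these. At 1.5-fold, 3 members or 9.38% were higher, against 11.2% of all genes, and 4 members or 12.5% were lower, against 11.7%. The median log2 ratio, knockout over wild type, was 0.00 for the 32 members, with 15 positive and 17 negative, and -0.01 for all 11491 genes above the floor on both arrays. Ratios smaller than the measurement error were read for 19 members, 59.4%, and for 44.8% of all genes, but 14 of the 32 members lay in the highest quintile of signal, where the spread of all ratios was smallest, with a robust SD of 0.34.

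**Figure D2:**
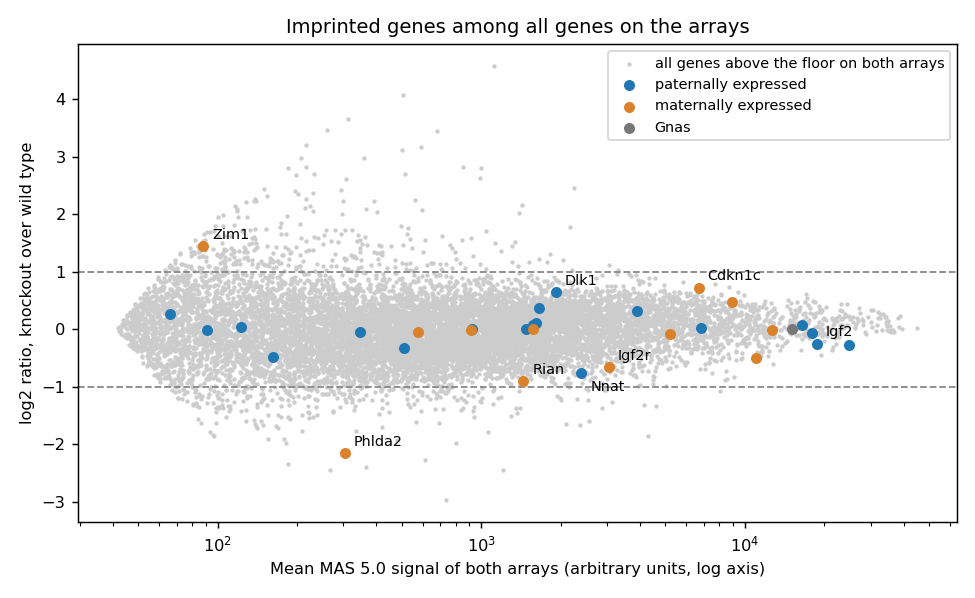
Log2 ratio, knockout over wild type, against the mean signal of both arrays (arbitrary units, log axis) for all genes above the floor on both arrays (grey) and the 32 imprinted genes, coloured by the allele known to be expressed; dashed lines mark 2-fold. Phlda2 lies at -2.16 and Zim1 at 1.45, and the other imprinted genes lie between the dashed lines.

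The largest difference among the members was in the Kcnq1 domain. Phlda2, a maternally expressed pleckstrin-homology protein that limits placental growth, read 110.6 on the knockout array and 495.7 on the wild-type array, a log2 ratio of -2.16 or 4.48-fold lower. Only 6 of the 11491 genes above the floor on both arrays had a lower ratio, and the robust SD of all ratios in its quintile of signal was 0.54. The value rests on 1 probe set, with no further one to set beside it. On the same arrays Plac1, a trophoblast gene named after its value was seen, was 3.05-fold lower at 278.5 on the knockout and 849.0 on the wild-type array. Of the 5 measured placenta markers, Tpbpa, Ctsq and Ascl2 were under the floor on both arrays, and Hand1 ran the other way at 78.0 on the knockout and 44.2 on the wild-type array. The list summed to 403 on the knockout array and 907 on the wild-type array, most of it from Plac1. The limb mesenchyme list was lower on the knockout array too, with sums of 27904 on the knockout and 50454 on the wild-type array. The part of placental or of limb mesenchyme transcripts in the Phlda2 reading was not tested.

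The neighbours of Phlda2 did not share its ratio. Cdkn1c encodes the cyclin-dependent kinase inhibitor p57, is maternally expressed, and is under the same control region. It read 8323.1 on the knockout array and 5042.0 on the wild-type array, 1.65-fold higher, and 681 of all genes had a higher ratio. Kcnq1ot1, the paternally expressed antisense RNA that silences the domain, read 1603.2 on the knockout array and 1528.8 on the wild-type array, a log2 ratio of 0.07. Its 4 probe sets above the floor split, 2 positive and 2 negative, from -1.18 to 0.24. The tetraspanin Cd81, at 5038.6 on the knockout and 5378.0 on the wild-type array, and Tssc4, a splicing-related protein, at 905.7 on the knockout and 920.1 on the wild-type array, differed by less than the measurement error. Slc22a18, encoding a transporter-like protein next to Phlda2, stayed under the floor on both arrays at 30.59 on the knockout and 35.96 on the wild-type array. Phlda2 and Cdkn1c, both maternally expressed, thus differed by more than 1.5-fold in opposite directions.

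The bases before the annotated start of Phlda2 are shown because it had the largest ratio, and those of Meg3 and Rian because these RNAs of 1 transcribed strand, described below, had ratios of opposite sign. The stretches are 250 bases long, in the gene's own direction, from RefSeq on GRCm38.p6, at chr7:143502525-143502774 on the minus strand for Phlda2 and at chr12:109540746-109540995 and chr12:109603695-109603944 on the plus strand for Meg3 and Rian. Of the 2 starts listed for Meg3 the upstream one was taken. Capitals mark CANNTG, the E-box that basic helix-loop-helix factors as a class bind, which reads the same on both strands.
Phlda2: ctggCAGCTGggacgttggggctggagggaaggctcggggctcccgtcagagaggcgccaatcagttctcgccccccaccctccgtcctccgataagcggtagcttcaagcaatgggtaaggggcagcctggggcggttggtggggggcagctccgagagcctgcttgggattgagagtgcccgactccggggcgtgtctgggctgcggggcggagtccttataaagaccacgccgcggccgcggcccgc
Meg3: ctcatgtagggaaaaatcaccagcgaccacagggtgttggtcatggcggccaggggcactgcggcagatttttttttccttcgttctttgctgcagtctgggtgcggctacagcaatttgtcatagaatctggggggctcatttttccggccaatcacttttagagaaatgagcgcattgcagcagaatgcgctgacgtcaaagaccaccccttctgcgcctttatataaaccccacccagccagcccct
Rian: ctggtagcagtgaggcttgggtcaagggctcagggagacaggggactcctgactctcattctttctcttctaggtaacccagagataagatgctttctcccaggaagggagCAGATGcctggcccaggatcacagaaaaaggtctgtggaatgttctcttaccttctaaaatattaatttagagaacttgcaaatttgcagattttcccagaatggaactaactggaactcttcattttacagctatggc
The E-box letters occurred 1 time before Phlda2, 0 times before Meg3 and 1 time before Rian. They occurred at least once in 66.2% of all 32851 RefSeq windows of this length and in 66.7% of the 33 members with a window, so their presence does not set these genes apart. The sequences differed in their CpG dinucleotides, the sites of DNA methylation in general, with 21 before Phlda2, 10 before Meg3 and 0 before Rian. The median was 6 over all windows and 10 over the members. Methylation was not measured, and a count of CpG letters does not mark a window as an imprinting control region. A match is a run of letters in this window and says nothing of binding.

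The Dlk1-Dio3 domain held ratios of both signs within its maternally expressed RNAs. Meg3, Rian and Mirg are non-coding RNAs read from the maternal copy in the same direction, Rian being a host of small nucleolar RNAs and Mirg of microRNAs. Meg3 read 10456.9 on the knockout array and 7491.6 on the wild-type array by its brightest probe set, a log2 ratio of 0.48. All 11 of its probe sets were above the floor on both arrays, 8 of them positive and 3 negative, with a median of 0.38 and a range from -0.97 to 1.14. The 5 brightest were all positive, between 0.26 and 0.56. Rian read 1005.1 on the knockout array and 1878.6 on the wild-type array, 1.87-fold lower, and its 4 probe sets were all negative, from -0.90 to -0.17 with a median of -0.75. Only 420 of the 11491 genes had a lower ratio than Rian. Mirg, downstream of both, read 564.5 on the knockout and 582.9 on the wild-type array, and its probe sets gave -0.05 and -0.31.

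Dlk1 was the paternally expressed gene of this domain with a reading. It encodes a transmembrane protein related to Notch ligands and is known from fetal liver, muscle precursors and mesenchyme. It read 2342.5 on the knockout array and 1496.8 on the wild-type array, 1.56-fold higher, by a probe set of a kind that can match several transcripts, and its other probe set read 98.5 on the knockout and 86.3 on the wild-type array, a log2 ratio of 0.19. The liver, yolk sac and gut sum and the muscle sum given above were also higher on the knockout array, and their part in the Dlk1 and Meg3 readings was not tested. Rtl1 and Dio3, the other paternally expressed genes of the domain, were not measured.

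In the Igf2/H19 domain the growth factor itself was close to even. Igf2, paternally expressed and the main fetal growth factor of its family, read 17176.7 on the knockout array and 20393.3 on the wild-type array, a log2 ratio of -0.25, within the measurement error. A dimmer Igf2 probe set read 201.6 on the knockout and 305.2 on the wild-type array, a ratio of -0.60. A probe set annotated to both Mir675 and H19, and therefore outside the rule, read 19883.2 on the knockout array and 21893.4 on the wild-type array, a ratio of -0.14. Mir675 is processed from the H19 RNA, which is maternally expressed. All 3 probe sets read lower on the knockout array. Fetal liver is a known source of Igf2 and H19 transcripts, and the part of the liver transcripts in these readings was not tested.

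Igf2r, maternally expressed and encoding the receptor that removes IGF2 from the cell surface, was lower on the knockout array by both of its probe sets. The brighter read 2363.6 on the knockout array and 3741.4 on the wild-type array, 1.58-fold lower, and the dimmer read 1551.0 on the knockout and 1983.7 on the wild-type array, with log2 ratios of -0.66 and -0.35. Airn, the paternally expressed antisense RNA that silences Igf2r on its own chromosome, read 1673.2 on the knockout array and 1565.4 on the wild-type array, a ratio of 0.10. Its 5 probe sets disagreed, 3 positive and 2 negative, and spanned -1.57 to 0.67. The extreme one read 290.3 on the knockout and 864.7 on the wild-type array. Igf2r and Airn overlap in the genome, and the positions of the probe sets along these transcripts were not analysed here, so the split of signal between them is uncertain. The transporter gene Slc22a3 was not measured.

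Of the IGF genes outside the imprinted set, 2 of 14 passed 2-fold in the higher direction and 0 in the lower. Of all genes above the floor, 4.15% were at least 2-fold higher and 2.65% lower. Igf1, the related ligand, read 2231.2 on the knockout array and 545.8 on the wild-type array, 4.09-fold higher. The liver-derived binding protein gene Igfbp1, named after its value was seen, read 91.7 on the knockout array and fell short of the floor at 20.5 on the wild-type array, at least 2.23-fold higher. Igf1r, the receptor through which both ligands signal, read 1295.2 on the knockout and 2120.5 on the wild-type array, a log2 ratio of -0.71, and was likewise named after its value was seen. The median of the 12 IGF genes above the floor on both arrays was -0.05. Grb10, an adaptor that restrains insulin and IGF receptor signalling and is maternally expressed outside neurons, read 12639.2 on the knockout array and 12706.8 on the wild-type array, a ratio of -0.01. Its dimmer probe sets gave 0.14 and 0.69, with 371.1 on the knockout and 229.9 on the wild-type array behind the larger.

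The Peg3 domain contained the only member whose brightest probe set passed 2-fold in the higher direction. Zim1, maternally expressed, read 129.1 on the knockout array and 47.2 on the wild-type array, a log2 ratio of 1.45 or 2.73-fold, by its single probe set. The wild-type value lay just above the floor of 41.2, in the lowest quintile of signal, where the robust SD of all ratios was 0.58, and 118 of all genes had a higher ratio. With the floor at the 60th percentile Zim1 was under it on both arrays. Peg3, a paternally expressed zinc finger gene tied to maternal care and growth, read 17601.2 on the knockout array and 18490.1 on the wild-type array, a ratio of -0.07. Its other 2 probe sets above the floor gave -0.56 and 0.09. Usp29, a paternally expressed protease-family gene that shares the Peg3 control region, read 90.3 on the knockout and 91.4 on the wild-type array.

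**Figure D3:**
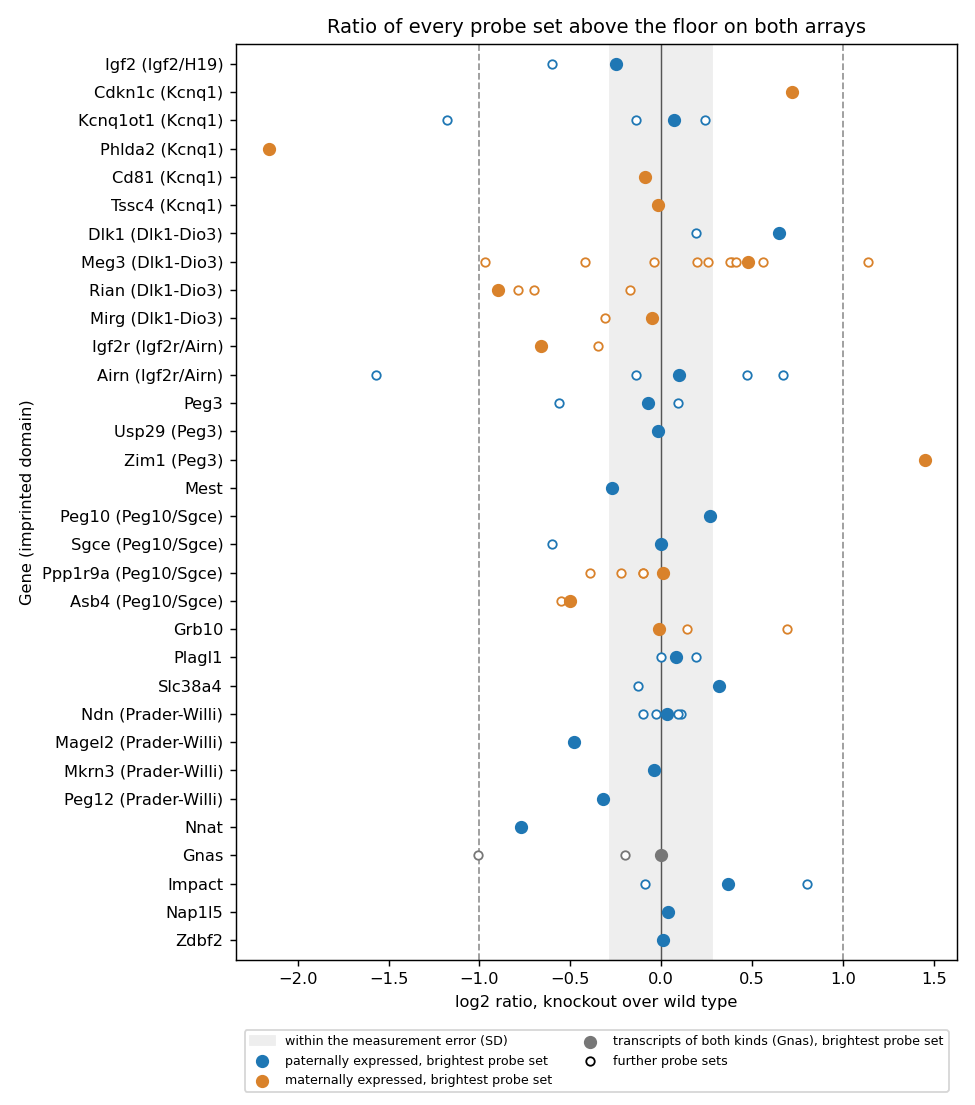
Log2 ratio, knockout over wild type, of every probe set above the floor on both arrays, for each imprinted gene (domain in brackets); filled points are the brightest probe set, open points the further ones, the grey band is the measurement error of 0.28 on either side of 0, and dashed lines mark 2-fold. The probe sets of Rian are all negative and the bright ones of Meg3 positive, while those of Airn span -1.57 to 0.67.

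Mesodermal and retrotransposon-derived genes on the next domains differed little. Mest, a paternally expressed hydrolase-fold gene of early mesoderm, read 22584.8 on the knockout array and 27254.4 on the wild-type array, a log2 ratio of -0.27. Peg10, derived from a retrotransposon and paternally expressed, was near the floor at 72.3 on the knockout and 60.2 on the wild-type array by its only probe set. Sgce, encoding epsilon-sarcoglycan, read 1474.3 on the knockout array and 1473.0 on the wild-type array by its brightest probe set, whereas a dimmer one gave a ratio of -0.60. Ppp1r9a, encoding the actin-binding protein neurabin, read 1577.0 on the knockout and 1563.3 on the wild-type array, and its other 4 probe sets were all slightly negative, none below -0.39. Asb4, a maternally expressed ankyrin repeat gene known from vascular and placental development, was lower by both probe sets. It read 9134.5 on the knockout array and 12875.6 on the wild-type array, a ratio of -0.50, and the other probe set gave -0.55. Endothelial markers were lower in the same direction, with sums of 6519 on the knockout and 7973 on the wild-type array. Of 13, 2 were at least 2-fold lower, against 2.65% of all genes above the floor. For 1 of these, Tie1, the knockout signal of 29.35 was under the floor. Limb mesenchyme markers were also lower, with sums of 27904 on the knockout and 50454 on the wild-type array. The part of either list in the Asb4 reading was not tested.

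Plagl1, a paternally expressed zinc finger factor that regulates other imprinted genes in mouse, read 16913.5 on the knockout array and 15997.0 on the wild-type array, a log2 ratio of 0.08. Its 3 probe sets all lay between 0.00 and 0.19. Slc38a4, a paternally expressed amino acid transporter of liver and placenta, read 4319.4 on the knockout array and 3459.2 on the wild-type array by its brighter probe set, a ratio of 0.32, and its other probe set gave -0.13. Neither gene passed 1.5-fold. The part of the liver transcripts on the knockout array in the Slc38a4 reading was not tested.

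The genes of the Prader-Willi domain, paternally expressed and known from hypothalamic and neuronal development, were even or lower on the knockout array. Ndn, a MAGE family gene, read 6870.4 on the knockout array and 6720.8 on the wild-type array, and its 5 probe sets above the floor lay between -0.10 and 0.11. Magel2, of the same family, read 135.5 on the knockout and 189.1 on the wild-type array, a log2 ratio of -0.48. Peg12, related to FRAT proteins of Wnt signalling, read 453.1 on the knockout and 563.8 on the wild-type array, a ratio of -0.32. Mkrn3, a ubiquitin ligase gene, read 343.5 on the knockout and 352.3 on the wild-type array. The single-symbol probe set of Snrpn, encoding a splicing protein, read 12.97 on the knockout and 33.26 on the wild-type array, both under the floor. The probe sets annotated to Snurf and Snrpn together, outside the rule, numbered 6, and the 4 above the floor gave ratios of -0.42, -0.32, -0.51 and -0.83. None of the 4 genes above the floor by a single-symbol probe set passed 1.5-fold in either direction. The part of the neural tube and nerve transcripts on the knockout array in these readings was not tested.

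Nnat, a paternally expressed proteolipid gene known from neural tissue and from metabolic organs, was also lower. It read 1776.4 on the knockout array and 3019.4 on the wild-type array, 1.70-fold lower, and 729 of the 11491 genes had a lower ratio. The part of the tissue differences given above in the Nnat reading was not tested. Impact, a regulator of translational control, read 1865.3 on the knockout array and 1443.5 on the wild-type array, a log2 ratio of 0.37, with 0.80 and -0.09 by its dimmer probe sets. Gnas yields the stimulatory G protein alpha subunit together with maternally and paternally expressed alternative transcripts. Its brightest probe set read 15092.9 on the knockout and 15101.7 on the wild-type array, a ratio of 0.00, while dimmer ones gave -0.20 and -1.01, the lower ratio at 59.9 on the knockout and 120.7 on the wild-type array. Nap1l5, of the nucleosome assembly protein family, read 123.8 on the knockout and 120.7 on the wild-type array, and the zinc finger gene Zdbf2 read 928.5 on the knockout and 925.0 on the wild-type array.

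**Figure D4:**
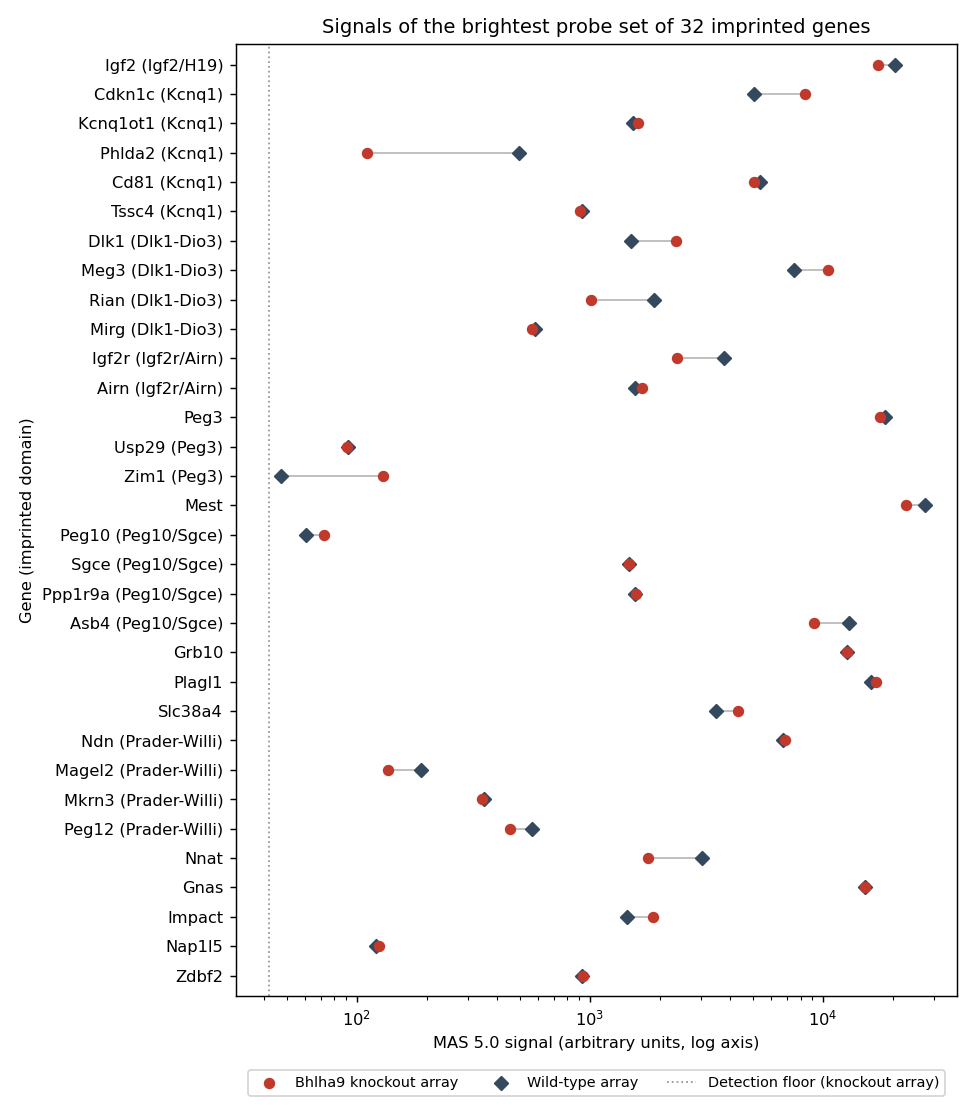
MAS 5.0 signal (arbitrary units, log axis) of the brightest probe set of the 32 imprinted genes above the floor, on the knockout array (circles) and the wild-type array (diamonds); the dotted line is the knockout array's floor of 41.8. Signals of different probe sets are not comparable with each other, and the distance between the points of a row is the ratio, widest for Phlda2 (110.6 on the knockout, 495.7 on the wild-type array).

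By expressed allele, the paternally expressed genes had the narrower range when each gene was read by its brightest probe set. Dimmer probe sets of the paternally expressed Airn and Kcnq1ot1 stood at -1.57 and -1.18. The ends of the maternal range, Phlda2 and Zim1, rest on 1 probe set each. The 19 paternally expressed genes above the floor had a median log2 ratio of 0.01, with 11 positive and 8 negative. They lay between -0.77 (Nnat) and 0.65 (Dlk1), with 0 past 2-fold. The 12 genes classed as maternally expressed had a median of -0.03 and lay between -2.16 (Phlda2) and 1.45 (Zim1), with 4 positive and 8 negative. Of these 12, 1 was at least 2-fold higher and 1 lower. The shares over all genes above the floor were 4.15% higher and 2.65% lower, so few genes past 2-fold are to be looked for in either class. Both classes are background knowledge, and whether each gene is imprinted in limb bud was not measured. Ratios within 0.5 of zero on the log2 scale were read for 17 of the 19 paternally expressed and 7 of the 12 maternally expressed genes, and for 71.7% of all genes. The difference between the allele classes was not tested, and members of 1 domain share a control region.

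Probe sets of the same gene often disagreed at this size of ratio. Of the 18 members with 2 or more probe sets above the floor on both arrays, 8 had all ratios of the same sign and 10 had mixed signs. Those with the same sign included Rian, Igf2r, Asb4, Igf2, Dlk1 and Mirg. Over all 77 member probe sets above the floor, 2 were at least 2-fold higher, where 3.38% of all single-symbol probe sets were, and 4 were at least 2-fold lower, where 3.89% were. The other 13 member probe sets were under the floor on both arrays.

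Among 40 further imprinted genes, 28 exceeded the floor on 1 or both arrays, and 2 of these passed 2-fold in the higher direction and 0 in the lower. The shares over all genes above the floor were 4.15% higher and 2.65% lower. The 2 higher ones were Cobl, an actin nucleator, at 94.0 on the knockout and 11.7 on the wild-type array, and Tfpi2, a protease inhibitor of placenta, at 93.5 on the knockout and 24.5 on the wild-type array. The wild-type signal of both was below the floor, so their ratios are bounds of at least 2.28-fold and 2.27-fold, and both were named after their values were seen. The median over the 21 detected on both arrays was 0.06, with a range from -0.68 to 0.97.

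The factors of DNA methylation and imprint regulation showed no ratio past 2-fold. Of all genes above the floor, 4.15% were at least 2-fold higher and 2.65% lower. Of 22 factors above the floor, 10 ratios were positive and 12 negative, with a median of -0.06. Dnmt1, the methyltransferase that copies methylation at replication, read 3858.4 on the knockout array and 5812.9 on the wild-type array, a log2 ratio of -0.59, and its partner Uhrf1 stood at -0.54. Trim28, the corepressor recruited to imprinted control regions by zinc finger proteins, stood at -0.41. The histone H3 lysine methyltransferase Ehmt2 had the lowest ratio, -0.96, at 1296.2 on the knockout and 2512.9 on the wild-type array. Zfp57, the zinc finger protein that binds methylated control regions, had the highest, 0.89, near the floor at 95.8 on the knockout and 51.8 on the wild-type array. Hells at 0.46 and Kdm1b at 0.40 were also among the 10 positive ratios. All factors named here were named after their values were seen.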

How the data were processed

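RNA of 1 Bhlha9 knockout and 1 wild-type sample was analysed. The RNA was isolated with ISOGEN and 200 ng of it biotin-labelled by 3′ in vitro transcription, per the labels' protocols. The authors summarised the arrays with MAS 5.0, as the series' design text states, and the deposited values are intensities on a linear scale. The 2% trimmed mean was 500.0 on both arrays, and precision is limited by having 1 array a genotype. Of 45101 probe sets, 64 controls were left out, and 34945 of the rest had 1 symbol in the platform annotation. Entrez identifiers of all 90 member probe sets matched RefSeq genes of GRCm38.p6.

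Signals under each array's 40th percentile were raised to it, and log2 ratios were taken as knockout over wild type. A ratio with 1 array under the floor is a bound, and with both under it none is given. A gene was represented by its probe set with the highest mean signal. Measurement error is the robust SD over the brightest pair of probe sets in 5440 genes, divided by the square root of 2. All 39 members are named; of the further imprinted, imprint regulator and IGF lists, genes past 2-fold and above the floor on both arrays are named, up to 5 in each direction, and others named there were chosen after their values were seen. Marker lists are given by counts and sums. Members and lists were chosen with earlier results of these data known. The steps were tested on simulated data. Alternatives covered scaling, floor, pseudocount, choice of probe set and fold threshold. Python 3.11.15 (numpy 2.4.6, pandas 2.3.3, matplotlib 3.10.9) and R 4.3.3 with limma 3.58.1 were used.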

Additional observations from a re-analysis of the deposited data

How the results depend on the processing

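No paired analysis was possible because each genotype is 1 array. The member medians, over all members and by expressed allele, moved by less than the measurement error under all 8 alternatives for scaling, floor and probe set, the median of all members lying between -0.10 and 0.04. Phlda2 was the member at least 2-fold lower under each of these, at -1.69 with a 60th-percentile floor and at or below -1.89 in the others. With a 20th-percentile floor 2 members were lower, Snrpn being the second. With a 60th-percentile floor 0 members were higher, because Zim1 was then under the floor on both arrays, and with a pseudocount of 32 Zim1 stood at 1.02. The 1.5-fold threshold gave 3 higher and 4 lower members and the 3-fold threshold 0 higher. Further imprinted genes past 2-fold numbered 4 with equal array medians, 5 with the 20th-percentile floor, 0 with the 60th-percentile floor, 1 with the mean over all probe sets, 10 at 1.5-fold and 0 at 3-fold. Imprint regulators numbered 1 with the 20th-percentile floor and 3 at 1.5-fold. IGF genes numbered 1 with the 60th-percentile floor, 5 at 1.5-fold and 1 at 3-fold. Of 249 recomputed values of single members, 243 moved by less than the measurement error. The 6 others were those of Phlda2 and Zim1 above, Grb10 (0.28) and Sgce (-0.30) with the mean over probe sets, and Dlk1 (0.19) and Sgce (-0.60) with unique probe sets. Members without a value in a setting were not counted. They were Zim1, Peg10, Usp29 and Nap1l5 with the 60th-percentile floor, and Nnat, Grb10 and Tssc4 with unique probe sets. Changes of sign were counted only for Phlda2 and Zim1, and 0 were found. Smaller ratios did change sign, such as that of Airn, from 0.10 to -0.10 with the mean over probe sets. Signals near the floor limit Zim1, Peg10, Usp29 and Nap1l5, and 1 probe set each limits Phlda2, Zim1, Cdkn1c and Nnat.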
